A study of Mus musculus with 12 samples.

Results

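The 8 genes described here are nuclear long noncoding RNAs: *Malat1*, *Neat1*, *Meg3*, *Rian*, *Mirg*, *Kcnq1ot1*, *Tug1* and *Miat*. They were chosen by name, and all 8 have a row among the 20981 genes of the deposited tables. The study asked which RNAs sit in complexes of L1 ORF1p, the RNA-binding protein encoded by the first reading frame of the LINE-1 retrotransposon, in mouse testis. Testes of *Mael*-/- C57BL/6 mice aged 3 months, which lack a germline protein that represses retrotransposons, were lysed in a buffer with 100 mM KCl and 0.3% NP-40, and the cleared lysate received 10 mM EDTA, which dissociates ribosomes. This lysate is TOTAL, its pooled sucrose gradient fractions 5 to 8 are INPUT, the RNA recovered from INPUT with anti-ORF1p beads is IP, and that recovered with beads carrying no antibody is BO. Each of these 4 groups has 3 RNA-seq libraries, described as biological replicates, and the *Mael* deletion is common to all of them, so no control genotype enters any comparison. TOTAL holds only what stayed in the supernatant of the lysate, and RNA left in the pellet was not measured.

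Long noncoding RNAs of this kind work as RNA, without being translated, and are known mainly from the nucleus. *Malat1* lies in nuclear speckles and *Neat1* is the scaffold of paraspeckles. *Kcnq1ot1* is transcribed from the paternal allele of an imprinted domain and silences neighbouring genes in cis, while *Meg3*, *Rian* and *Mirg* are read from the maternal allele of the *Dlk1*-*Dio3* domain, as one long transcription unit that also gives rise to snoRNAs and miRNAs. *Tug1* is found in both nucleus and cytoplasm, and *Miat* forms its own nuclear foci. Complexes of ORF1p, by contrast, are known mainly from the cytoplasm.

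*Malat1* and the long isoform of *Neat1* end without an ordinary poly(A) tail. In its place a pair of U-rich stretches and an A-rich tract fold into a triple helix that protects the 3′ end. These elements are shown because *Malat1* and *Neat1* share them. Their part in the values given below was not tested. The sequences are from GENCODE M21 transcripts on mm10, each on the minus strand of chromosome 19, 5′ to 3′, at chr19:5795982-5796065 for *Malat1* and chr19:5824708-5824797 for *Neat1*. Capitals mark TTTCTTTT, TTTTGCTTTT and the last AAAAAGCAAAA.
Malat1: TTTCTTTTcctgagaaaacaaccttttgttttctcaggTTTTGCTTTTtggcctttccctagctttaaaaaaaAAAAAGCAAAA
Neat1: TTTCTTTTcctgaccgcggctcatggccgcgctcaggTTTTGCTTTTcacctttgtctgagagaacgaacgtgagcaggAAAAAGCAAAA
The *Neat1* window closes at the last base of its annotated long transcript, and the *Malat1* window closes 292 bases before the annotated end. The first 2 motifs are spaced alike, with 30 bases between them in *Malat1* and 29 in *Neat1*. The gap from the second motif to the third is 25 bases in *Malat1* and 32 in *Neat1*. Searched on the sense strand of all 141767 GENCODE transcripts, the 3 motifs in this order within 150 bases occurred in 2 transcripts, those of *Malat1* and *Neat1*. The motifs are exact strings of these 2 RNAs, so that both were found was fixed by the choice of strings. Ends with variants of the motifs could not be found this way. Singly, TTTCTTTT was in 12.3% of transcripts, TTTTGCTTTT in 1.08% and AAAAAGCAAAA in 0.436%. None of the other 6 members held AAAAAGCAAAA in its longest transcript.

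On mm10, *Malat1* is at chr19:5795690-5802672 and *Neat1* at chr19:5824708-5845478, each as 1 exon block on the minus strand. *Meg3* (chr12:109541001-109571726), *Rian* (chr12:109603940-109661716) and *Mirg* (chr12:109729764-109749460) follow one another on the plus strand of chromosome 12. *Kcnq1ot1* is a single exon of 93092 nt on the minus strand (chr7:143203458-143296549), antisense to *Kcnq1*, with which it shares 121 exonic nt. *Tug1* (chr11:3639785-3649673) and *Miat* (chr5:112213228-112229395) are on the minus strand, and *Tug1* shares 483 exonic nt with *Morc2a* on the opposite strand. The longest transcript of each member, between 3822 nt for *Mirg* and 93092 nt for *Kcnq1ot1*, exceeded those of at least 95.4% of the 10704 annotated lncRNA genes, whose median was 1020 nt. Base composition varied widely among members, from 35.8% GC in *Rian* to 55.1% in *Miat*. *Kcnq1ot1* had the highest share of A, 33.3%, against a median of 27.4% over lncRNA genes.

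The gene values are group means of normalised read counts as the authors gave them, with no value per library. Every value below is therefore the authors' mean of a group. The authors' own standard errors and tests were not used, so no spread between libraries is given here and no difference was tested across libraries. The intervals printed are exact 95% intervals for counting error only, from the fewest reads the mean can stand for. The means are relative to the other RNAs of a library, on the scale of the authors' normalisation, and do not measure how much RNA was recovered. Their sum over genes differed between groups, so they are not shares of a library. For levels shown across all 4 groups, the tables were joined through the IP group that they share, by multiplying the BO means by 1.31 and the INPUT means by 0.996. A log2 ratio is log2 of the first mean plus 1 over the second mean plus 1. Fold values, ratios not given as log2, and all intervals of ratios use the means without the added 1. Among the libraries, whose single values are read here only on repeat subfamilies, BO replicate 3 stood apart, with 52.1% of its signal on LSU rRNA against at most 15.9% in any other library, and the gene tables do not allow a BO mean without it. *Mael* itself had a deposited mean, before this joining, of 0.65 in TOTAL, 0.502 in BO and 0 in INPUT and IP.

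Compared per kb of the longest transcript in TOTAL, *Malat1* was the highest member with 6514 normalised reads per kb. *Tug1* followed with 777, *Neat1* with 39.4, *Rian* with 26.0 and *Meg3* with 10.8. *Kcnq1ot1* stood at 2.89 per kb, *Mirg* at 2.08 and *Miat* at 0.578, and *Mirg* and *Miat* were close to the counting limit. In an extract of whole testis, few cells with an RNA and little RNA per cell cannot be told apart. In IP the order was the same except that *Kcnq1ot1*, at 6.77 per kb, lay above *Meg3*, at 2.01. Per kb of the median instead of the longest annotated transcript, *Kcnq1ot1* at 2.89 was the lowest member in TOTAL, below *Miat* at 7.13 and *Mirg* at 7.25. The values above them were far higher on that measure but in the same order. *Malat1* was at 75058.5, *Tug1* at 1911, *Neat1* at 405, *Rian* at 236 and *Meg3* at 198.

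**Figure D1:**
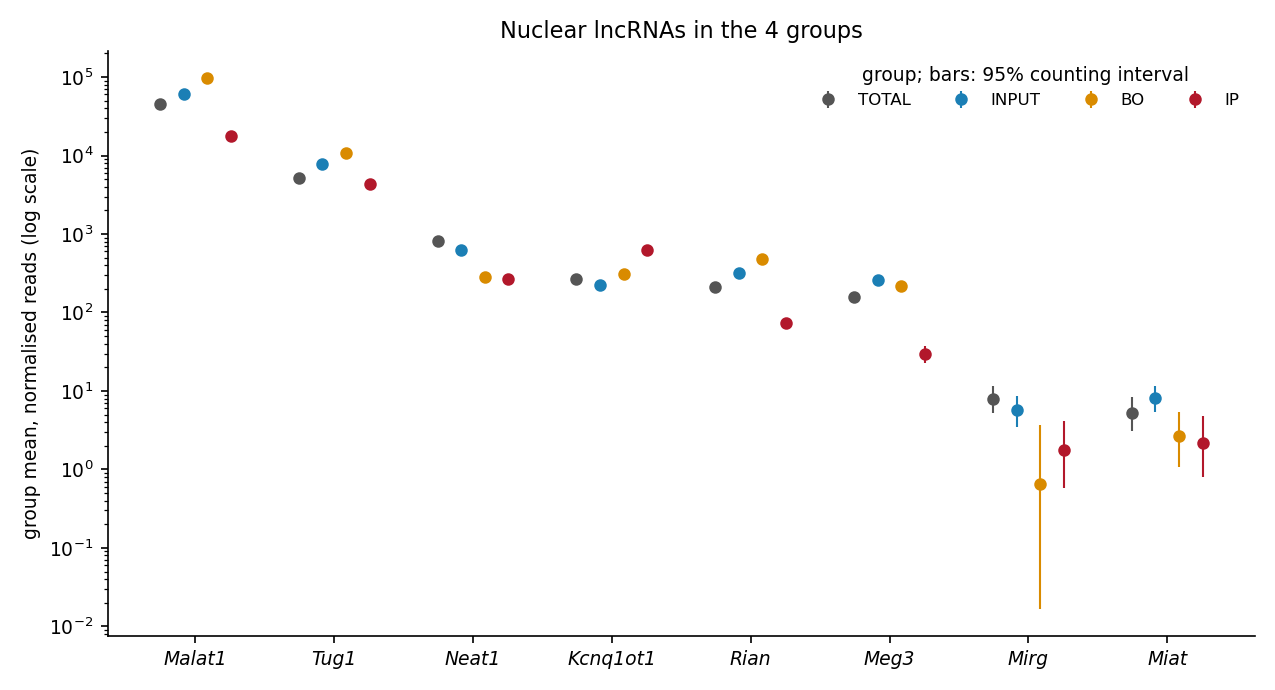
Group means of the 8 members (log axis, normalised reads on the scale of the IP vs TOTAL table) in TOTAL, INPUT, BO and IP, with bars for the 95% counting interval. Kcnq1ot1 is highest in IP at 630.5, while the IP mean of Malat1, at 17766, is below its other 3 means.

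*Malat1* had its highest mean in BO and its lowest in IP. Its mean was 45485 normalised reads in TOTAL, 61614 in INPUT, 98771 in BO and 17766 in IP. IP was 5.55-fold lower than BO (log2 ratio -2.47, interval -2.49 to -2.46), 3.46-fold lower than INPUT (-1.79) and 2.56-fold lower than TOTAL (-1.36). Among all genes tested, 1.75% had a lower ratio of IP to BO, 4.13% a lower ratio to INPUT and 19.7% a lower ratio to TOTAL. *Malat1* accounted for 0.278% of all gene means in TOTAL, 0.380% in INPUT, 0.514% in BO and 0.0757% in IP. By reads collected it was number 3 of the 20981 genes in TOTAL, number 2 in INPUT and number 3 in BO, but number 149 in IP.

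*Neat1* behaved differently from *Malat1*, its neighbour on chromosome 19. Its mean was 818 in TOTAL, 629 in INPUT, 285 in BO and 266 in IP. The level was thus lower on both kinds of beads than in the material loaded on them. On the authors' scale IP and BO did not differ beyond counting error (log2 ratio -0.10, interval -0.28 to 0.08). The ratio was -0.91 when centred on the median gene or scaled to the upper quartile and -0.39 when scaled to the sum of gene means, outside that interval. IP was 2.36-fold lower than INPUT (-1.23, interval -1.37 to -1.11) and 3.08-fold lower than TOTAL (-1.62, interval -1.752 to -1.495). *Neat1* has a short and a long isoform that share their 5′ part, and the tables do not separate them.

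The difference between the pair is clearest as a ratio within each group, which a scaling common to the 3 libraries of the group cannot change. It does depend on how single libraries are weighted, and in BO a read added between 0.239 and 0.502 to the mean, depending on its library. For each read of *Neat1* there were 55.6 of *Malat1* in TOTAL (interval 53.5 to 57.9) and 97.96 in INPUT (93.7 to 103). The ratio was 346 in BO (315 to 381) and 66.9 in IP (61.8 to 72.5). The intervals of the 4 groups did not overlap, and BO stood far above the other 3. Of the 6 protein-coding genes listed as neighbours of *Malat1* and *Neat1*, IP was past 2-fold higher than BO in 4 and lower in 0. Over all genes 43.9% were higher and 11.2% lower, and 0 of 6 is near the latter share. Against INPUT, IP was higher in 0 and lower in 2 (all genes 20.5% and 14.6%). Against TOTAL, IP was higher in 1 and lower in 1 (all genes 20.4% and 26.2%). The median log2 ratios of these neighbours were 1.12 against BO, -0.47 against INPUT and -0.42 against TOTAL. The medians over all genes were 0.81, 0.15 and -0.03. *Slc25a45* (0.21 against BO), *Frmd8* (1.36) and *Ehbp1l1* (0.39) each lay above *Neat1* in that comparison. Against TOTAL, *Slc25a45* (-2.12) lay below *Neat1* (-1.62), and *Frmd8* (-0.35) and *Ehbp1l1* (-0.49) lay above it.

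*Tug1* gave the same order of groups as *Malat1* with smaller differences. Its mean was 5223 in TOTAL, 7721 in INPUT, 10826 in BO and 4387 in IP. IP was 2.47-fold lower than BO (log2 ratio -1.30, interval -1.34 to -1.27) and 1.76-fold lower than INPUT (-0.81). Against TOTAL it was 1.19-fold lower (-0.25), close to the median gene. The *Malat1* to *Tug1* ratio was 8.71 in TOTAL, 7.98 in INPUT and 9.12 in BO, and 4.05 in IP (3.96 to 4.14). Outside IP the proportion of these 2 RNAs thus varied little.

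**Figure D2:**
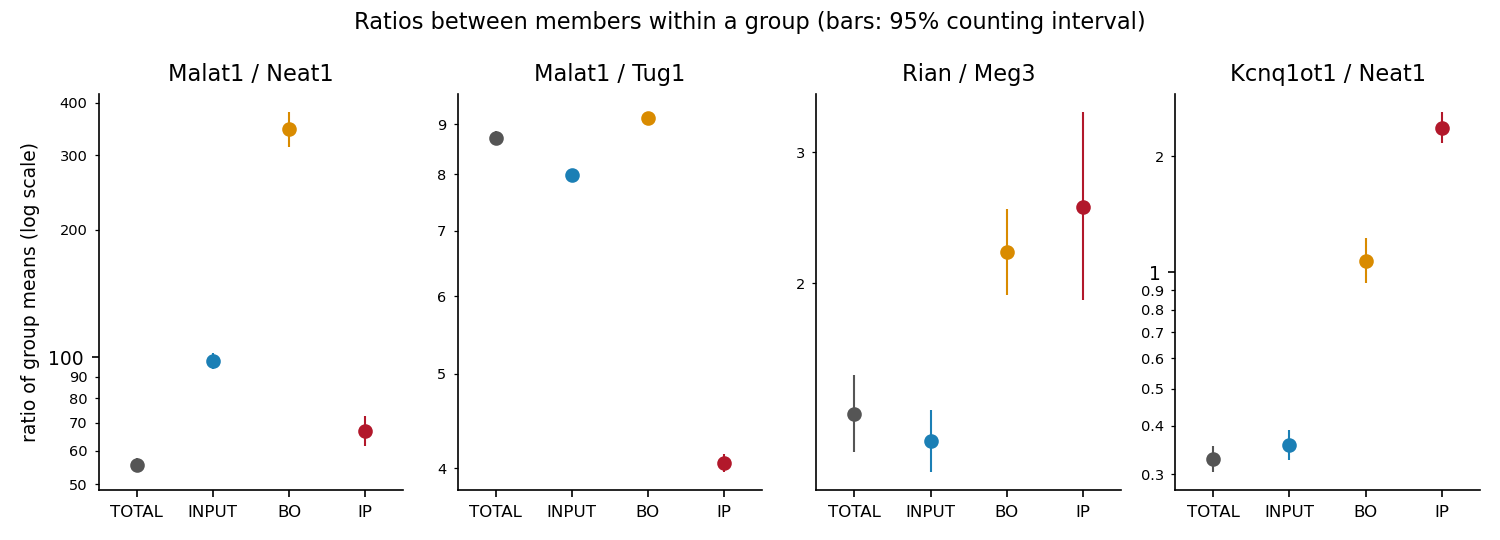
Ratio of 2 members' means within each group (log axes, bars for the 95% counting interval). Malat1 to Neat1 is highest in BO at 346, Malat1 to Tug1 lowest in IP at 4.05, Rian to Meg3 above 2 on both kinds of beads, and Kcnq1ot1 to Neat1 highest in IP at 2.37.

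The imprinted transcripts *Meg3* and *Rian* were past 2-fold lower in IP than in each other group. *Meg3*, the first RNA of the maternal unit, had a mean of 158 in TOTAL, 258 in INPUT, 216 in BO and 29.3 in IP. IP was 7.35-fold lower than BO (log2 ratio -2.82, interval -3.28 to -2.50), 8.74-fold lower than INPUT (-3.09, interval -3.51 to -2.77) and 5.39-fold lower than TOTAL (-2.39, interval -2.82 to -2.06). Among all genes tested, 0.998% had a lower ratio of IP to BO, 0.222% a lower ratio to INPUT and 6.78% a lower ratio to TOTAL. *Rian*, which lies downstream and hosts snoRNAs, had a mean of 211 in TOTAL, 317 in INPUT, 475 in BO and 74.0 in IP. IP was 6.40-fold lower than BO (-2.66, interval -2.93 to -2.44), 4.26-fold lower than INPUT (-2.08) and 2.85-fold lower than TOTAL (-1.496). The shares of genes with a lower ratio were 1.33%, 2.31% and 17.3% in the same order.

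Although read from one unit, *Meg3* and *Rian* did not keep a constant proportion. There were 1.34 reads of *Rian* for each of *Meg3* in TOTAL (interval 1.19 to 1.51) and 1.23 in INPUT (1.12 to 1.35). There were 2.20 in BO (1.93 to 2.51) and 2.53 in IP (1.90 to 3.40). Both kinds of beads therefore stood above both TOTAL and INPUT, and the intervals of BO and IP overlapped. *Mirg*, the miRNA host at the far end of the unit, was near the counting limit, with a mean of 7.96 in TOTAL, 5.67 in INPUT, 0.656 in BO and 1.79 in IP. Its IP mean stands for 5 reads over 3 libraries, its BO mean for 1 and its INPUT mean for 21. The ratio of IP to INPUT was 0.318 (interval 0.0936 to 0.866), and that of IP to BO was 2.74 with an interval from 0.306 to 129, so that no direction can be read from it. Of the 18 genes annotated inside *Rian*, of which 13 are snoRNAs and 4 miRNAs, 6 had a row, and of the 14 miRNA genes inside *Mirg*, 8 had one. Their summed means were at most 3.58 and 2.35 in any group, in libraries not made for RNAs of that size. Other genes of the *Dlk1*-*Dio3* domain were scarce. *Dlk1*, a Notch-like membrane protein read from the paternal allele, had a mean of 43.3 in TOTAL and 7.63 in IP, with log2 ratios of 0.05 against BO, -2.23 against INPUT and -2.36 against TOTAL. *Begain* had 20.6 in TOTAL and 22.7 in IP. *Rtl1* and *Dio3os* were listed at 0 in BO.

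*Kcnq1ot1* was the only member higher in IP than in each other group. Its mean was 269 in TOTAL, 225 in INPUT and 306 in BO, and 630.5 in IP. On the authors' scale the first 3 groups lay near each other, with a log2 ratio of BO to INPUT of 0.45. Centred on the median gene, that ratio was 1.01 and the ratio of IP to BO 0.23, so that on this scale BO lay nearer to IP than to INPUT. IP was 2.82-fold higher than INPUT (log2 ratio 1.49, interval 1.36 to 1.63) and 2.34-fold higher than TOTAL (1.23, interval 1.11 to 1.35). Against BO it was 2.06-fold higher (1.04, interval 0.89 to 1.20), and the interval includes 2-fold. Among all genes tested, 90.4% had a lower ratio of IP to INPUT and 84.8% a lower ratio to TOTAL, but only 57.6% a lower ratio to BO. In 11.0% of the 13566 genes tested in all 3 comparisons, IP was past 2-fold higher in each of them, as for *Kcnq1ot1*.

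Scaled so that the summed gene means of the groups are equal, the log2 ratios of *Kcnq1ot1* were 0.75 against BO, 0.96 against INPUT and 0.71 against TOTAL, and none of them was past 2-fold.

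The proportion of *Kcnq1ot1* to other members does not depend on such a scaling of whole groups. There was 0.329 of a read of *Kcnq1ot1* for each of *Neat1* in TOTAL and 0.357 in INPUT, but 1.07 in BO (interval 0.939 to 1.22) and 2.37 in IP (2.16 to 2.61). Against *Meg3* the ratio was 1.71 in TOTAL, 0.870 in INPUT, 1.42 in BO and 21.6 in IP (16.9 to 27.9). *Kcnq1*, on the other strand, was named for its overlap after its values were seen, and its means of 5.90 in TOTAL and 4.04 in IP were far below those of *Kcnq1ot1*. Whether reads were counted by strand is not given in the sources used here, so reads of the 121 shared nt may have been assigned to either gene or to none. Of the 10 listed genes of the *Kcnq1* domain, 6 had a mean of at least 10 in the comparison with BO and 7 in each of the other 2. IP was past 2-fold higher in 2 and lower in 1 against BO, higher in 2 and lower in 2 against INPUT, and higher in 0 and lower in 2 against TOTAL. Over all genes 43.9% were higher and 11.2% lower against BO, 20.5% and 14.6% against INPUT, and 20.4% and 26.2% against TOTAL. *Nap1l4*, a histone chaperone, had log2 ratios of 2.18, 1.10 and 0.71 in that order, and *Cd81*, a tetraspanin, had -1.19, -1.73 and -2.42. *Osbpl5* (0.46, -0.34 and 0.28) and *Tssc4* (0.01, -0.0049 and 0.04) were near 0 in these comparisons.

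*Miat*, which carries 6 copies of the motif TACTAAC in its longest transcript where 4.16% of lncRNA genes hold any, was scarce in every group. That transcript has 9163 nt, beside the median of 1020 nt over lncRNA genes. *Kcnq1ot1* held 4 copies of the motif in 93092 nt and *Neat1* held 1 in 20771 nt. Per kb this was 0.043 and 0.048, against 0.655 in *Miat*. The mean of *Miat* was 5.29 in TOTAL, 8.10 in INPUT, 2.66 in BO and 2.18 in IP. The BO mean stands for 7 reads and the IP mean for 6. The ratio of IP to INPUT was 0.271 (interval 0.0921 to 0.665), and IP was not distinguishable at this depth from BO (0.824, interval 0.229 to 2.86) or TOTAL (0.412, interval 0.133 to 1.10).

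Taking the 8 members as a set, IP was past 2-fold lower than BO in 4 and higher in 1, where among all 13634 genes tested 11.2% were past 2-fold lower and 43.9% higher. Against INPUT, IP was past 2-fold lower in 6 members, *Mirg* and *Miat* included, and higher in 1, where 14.6% of 14400 genes were lower and 20.5% higher. Against TOTAL, IP was past 2-fold lower in 5 members and higher in 1, where 26.2% of 14666 genes were lower and 20.4% higher. *Malat1*, *Meg3* and *Rian* were past 2-fold lower in all 3 comparisons, as were 3.63% of the 13566 genes tested in each of them. The background was taken from genes whose mean in the 2 compared groups was 10 or more, which 6 members passed in each comparison with IP and *Mirg* and *Miat* in none of them. The median log2 ratio of these 6 was -1.89 against BO, -1.51 against INPUT and -1.43 against TOTAL. In each of these comparisons 7 of the 8 members lay below the median gene, and *Kcnq1ot1* was the exception. Against BO the 7 include *Mirg*, on 1 BO read. With a pseudocount of 0.1 it lay above the median gene there (1.29 beside 0.82). The median gene stood at 0.81 against BO, 0.15 against INPUT and -0.03 against TOTAL. Relative to it, *Malat1* was at -3.28 against BO and -1.94 against INPUT, *Meg3* at -3.64 and -3.24, and *Rian* at -3.47 and -2.23. *Tug1* was at -2.11 and -0.97 on the same scale, *Neat1* at -0.91 and -1.39, and *Kcnq1ot1* at 0.23 and 1.34. The 3 comparisons share the IP libraries and are not independent of each other.

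**Figure D3:**
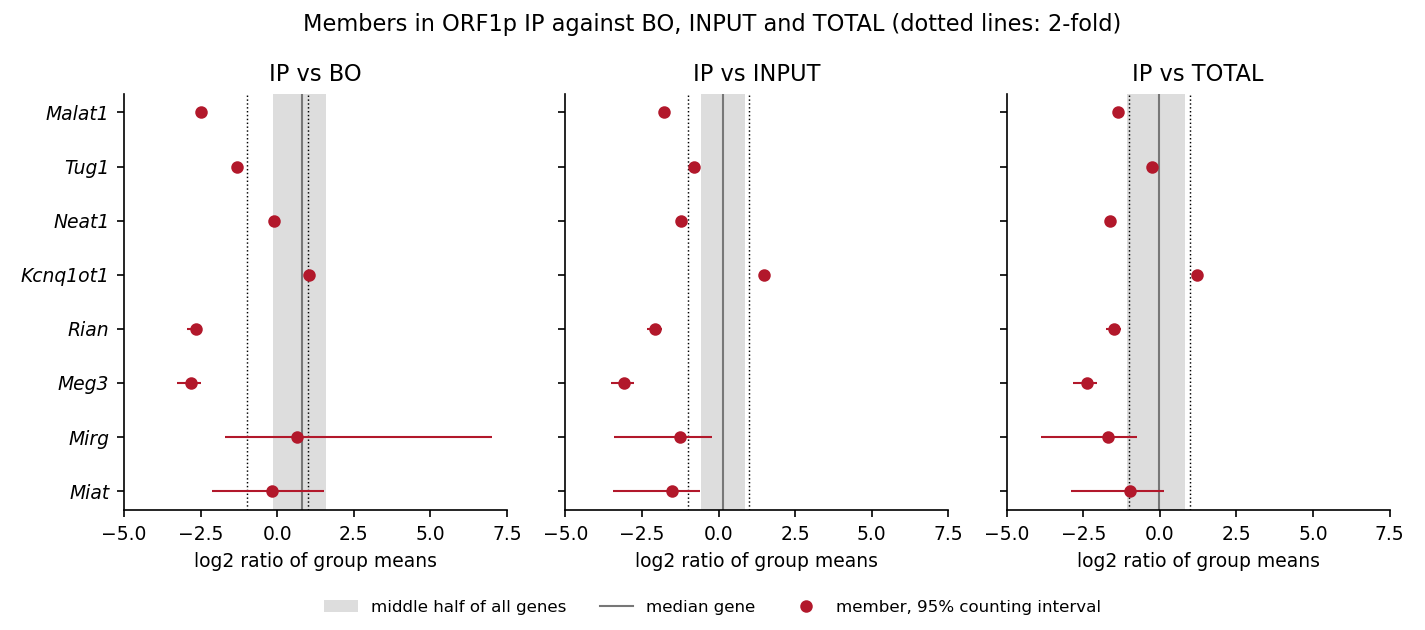
Log2 ratio of IP to BO, INPUT and TOTAL for the 8 members (points, with 95% counting intervals), beside the median gene (grey line) and the range between the quartiles of all genes tested (grey band). Malat1, Meg3 and Rian lie left of the dotted 2-fold line in all 3 panels and Kcnq1ot1 lies right of it, by little in the panel for BO.

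INPUT and BO can also be set against their own starting material. From TOTAL to INPUT, which is the step of the sucrose gradient, no member was past 2-fold in either direction, where 18.3% of all genes were lower and 2.31% higher. *Meg3* (log2 ratio 0.70), *Rian* (0.58), *Tug1* (0.56) and *Malat1* (0.43) were higher in INPUT, beside a median gene of -0.16. *Neat1* (-0.38) and *Kcnq1ot1* (-0.26) were lower. On few reads, *Mirg* was at -0.43 (interval -1.39 to 0.39) and *Miat* at 0.53 (interval -0.30 to 1.57). From INPUT to BO, *Malat1* (0.68), *Rian* (0.58), *Tug1* (0.49) and *Kcnq1ot1* (0.45) were higher on bare beads, beside a median gene of -0.56. *Meg3* was lower by little (-0.26) and *Neat1* was past 2-fold lower (-1.13). *Mirg* (-1.91) and *Miat* (-1.33) were past 2-fold lower as well, on 1 and 7 reads, where 34.3% of all genes were past 2-fold lower and 9.34% higher. Centred on the median gene, *Meg3* was at 0.30, which turned its direction. *Neat1* (-0.57) and *Miat* (-0.77) were then no longer past 2-fold, and *Mirg* was at -1.35. On that scale *Malat1*, *Rian*, *Tug1* and *Kcnq1ot1* were past 2-fold higher in BO than in INPUT, at values between 1.01 and 1.242, with *Kcnq1ot1* (1.01) and *Tug1* (1.05) close to the threshold. Of all genes, 19.7% were past 2-fold higher and 18.2% lower on that scale.

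The members are long, and transcript length moved with the ratios over all genes. Tested genes other than members were divided by the length of their longest transcript into 5 classes of equal number. From the shortest class to the longest, the median log2 ratio went from 1.40 to -0.0007 against BO and from -1.19 to 0.65 against TOTAL, and against INPUT from -0.06 to 0.20. The 6 members with a mean of at least 10 belong to the longest class, which begins at 5429 nt in the comparison with BO. Within that class, *Malat1*, *Meg3*, *Rian* and *Tug1* lay below the lower quartile of -0.90 against BO, while *Neat1* did not. All of these 5 lay below the lower quartiles of -0.43 against INPUT and -0.08 against TOTAL. *Kcnq1ot1* lay above the upper quartiles of 0.85 against BO and 0.78 against INPUT, but under that of 1.28 against TOTAL. The ratio of BO to INPUT also differed with both properties. Its median went from -1.33 in the shortest class to 0.23 in the longest, where the quartiles were -0.45 and 0.89, and *Malat1*, *Rian*, *Tug1*, *Kcnq1ot1* and *Meg3* lay between them while *Neat1* lay below. By GC content, the median was 0.27 in the lowest class and -1.20 in the highest, and *Malat1*, *Rian*, *Tug1* and *Kcnq1ot1*, of 35.8% to 42.5% GC, fall in the lowest class. For IP, the median went from 0.35 in the lowest GC class to 1.02 in the highest against BO. It went from 0.67 to -0.20 against INPUT and from 0.33 to -0.29 against TOTAL. The part of length and GC content in the members' values was not tested.

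**Figure D4:**
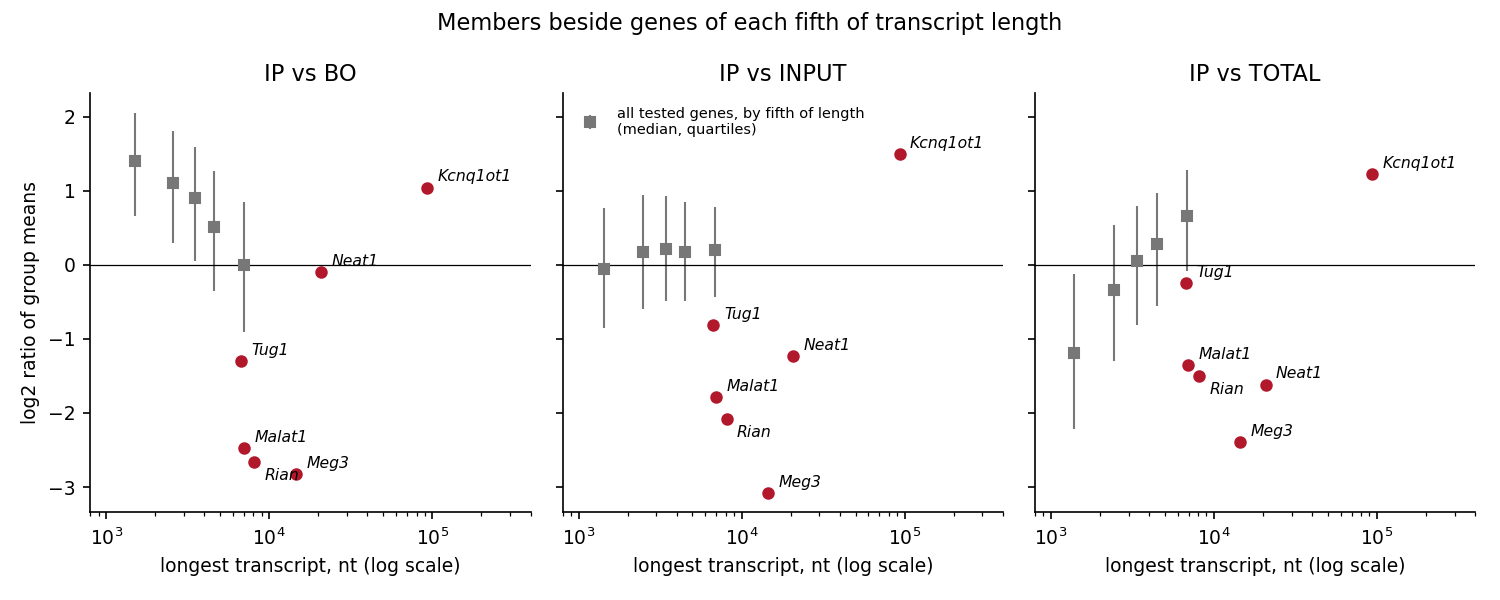
Log2 ratio of IP to BO, INPUT and TOTAL against the length of the longest transcript (log axis). Grey squares and bars give the median and quartiles of tested genes in 5 length classes at each class's median length, and red points are the 6 members with a mean of at least 10. Kcnq1ot1, at 93092 nt, is above all 5 medians in the panels for INPUT and TOTAL, and the other 5 members are below the median of the longest class in all 3 panels, Neat1 by little in the panel for BO.

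Other long noncoding RNAs did not move as one body. Over lncRNA genes tested, the median log2 ratio was 0.50 against BO (275 genes), -0.10 against INPUT (341 genes) and -0.54 against TOTAL (377 genes), where protein-coding genes had 0.82, 0.16 and -0.01. Of these lncRNAs, 1.45% were lower than *Meg3* against BO, 0.880% against INPUT and 9.81% against TOTAL, and for *Rian* the shares were 2.91%, 4.40% and 26.3%. For *Malat1* they were 3.64%, 7.62% and 31.6%, for *Tug1* 11.6%, 25.2% and 57.8%, and for *Neat1* 33.1%, 15.5% and 23.1%. *Kcnq1ot1* was at 63.6%, 90.3% and 90.2%. Of 17 other nuclear noncoding RNAs in the tables, 9 had a mean of at least 10 in the comparison with BO and 11 in each of the other 2. IP was past 2-fold higher in 2 and lower in 3 against BO (median log2 ratio -0.58), higher in 0 and lower in 4 against INPUT (-0.74), and higher in 0 and lower in 5 against TOTAL (-0.34). The shares over all genes were 43.9% higher and 11.2% lower against BO, 20.5% and 14.6% against INPUT, and 20.4% and 26.2% against TOTAL. The most abundant by reads were the RNA components of RNase P, *Rpph1*, and RNase MRP, *Rmrp*, with log2 ratios to INPUT of -4.71 and -3.43 but to BO of 1.29 and 2.94. *Firre*, which organises chromosome contacts in the nucleus, had -3.34 to INPUT and -0.06 to BO, and *Peg13*, an imprinted RNA, had -0.45 and -1.87. Of 8 lncRNAs known mainly from the cytoplasm, IP was past 2-fold higher in 4 and lower in 1 against BO (median 1.11), higher in 1 and lower in 2 against INPUT (0.06), and higher in 0 and lower in 5 against TOTAL (-1.15). The 4 of 8 higher than BO are near the share over all genes. The 1 lower than in BO was 2900097C17Rik, the gene of *Norad*, which binds Pumilio proteins, with a mean of 28740 in BO against 3743 in IP and 2042 in INPUT. Among snoRNA hosts, the log2 ratios to BO, INPUT and TOTAL were 0.11, -1.13 and -1.75 for *Gas5*, 1.98, 1.10 and -1.12 for *Snhg6*, and 2.05, 0.16 and -0.22 for *Snhg1*.

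By the distance between their log2 ratios to BO, INPUT and TOTAL, the genes nearest to each of 4 members were found among 11211 genes with a mean of at least 50 in IP and TOTAL. *Malat1* was nearest to *Naalad2* (distance 0.14), *Thrb* (0.16) and AI504432 (0.23), the last of them an lncRNA. *Neat1* was nearest to *Klhdc8a* (0.09), *Cebpa* (0.12) and *C1s1* (0.18), and *Tug1* to A530054K11Rik (0.13), *Robo1* (0.13) and *Akap17b* (0.14). *Kcnq1ot1* was nearest to *Hnrnpll* (0.09), *Dusp18* (0.10) and *Gmcl1* (0.11), all 3 protein coding.

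The summed levels of cell type markers differed between the groups, which are fractions of one lysate. Among all genes tested against TOTAL, 20.4% were past 2-fold higher and 26.2% lower in IP, with a median log2 ratio of -0.03. Against TOTAL, IP was past 2-fold higher in 6 of 6 spermatocyte markers (median log2 ratio 2.35), whose summed mean was 19513 in TOTAL, 20687 in INPUT, 10967 in BO and 120042 in IP. It was lower in 5 of 5 Leydig cell markers (median -2.56, summed means 77573, 42178, 7401 and 15226 in the same order) and in 6 of 8 Sertoli cell markers (-1.60, with 92258, 93928, 35496 and 27289). Of 7 markers of peritubular, vessel and macrophage cells, 4 were lower (median -1.47, summed means 13549, 9286, 4094 and 5354). Of 5 spermatogonial markers 1 was lower, a share near that over all genes (median -0.45, summed means 5251, 4815, 7222 and 2985). None of these markers was at 0 in any group. A sum can rest largely on 1 abundant marker and need not follow the rest of its list. *Kit* rose from 2927 in INPUT to 5870 in BO. Yet of the 5 spermatogonial markers, 3 were past 2-fold lower in BO than in INPUT and 1 higher (median -1.16). Over all genes 34.3% were lower and 9.34% higher. *Clu* went from 66084 in TOTAL to 78062 in INPUT, where the median log2 ratio of the 8 Sertoli markers was -0.44. The spermatid markers *Prm1* and *Acrv1* were at 0 in BO and *Prm2* in IP, and the 4 of them summed to 77.0 in TOTAL. The part of cell type in the members' values was not tested.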

How the data were processed

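RNA-seq libraries of 4 groups of *Mael*-/- testis samples were analysed from processed files, 3 per group and 12 in all, with groups taken from the sample labels. Libraries were made with a stranded total RNA kit after rRNA depletion. Per the submitters' processing notes, STAR 2.6.0c, DESeq2 1.24.0 and mm10 were used. The gene annotation and the strand setting are not given in the sources used here.

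The deposited signal for genes is the mean of the counts that the authors normalised with DESeq2, per group, in 3 tables of IP with each other group. The tables also hold the authors' log2 fold changes, standard errors, Wald statistics, p-values and adjusted p-values, which rest on the spread between libraries and were not used. They list 20981 genes and 781935 repeat loci without coordinates, so that loci inside member genes could not be assigned. A further 4 rows hold reads assigned to no single gene, with multimapping reads and reads ambiguous between genes included. These rows held between 22.1% and 38.6% of the signal of a group and stayed out of all sums. A second file gives the deposited signal per repeat subfamily in each library, normalised by the authors. It holds no member and served only to compare libraries. In each library 100% of its values up to 2000 reads were whole multiples of 1 step, within a tolerance of 0.1 of a read, and 1384904 to 7282171 reads were recovered per library.

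Group means are sums of whole reads in 3 libraries, each read adding 1 of 3 fixed steps. A mean divided by the largest and by the smallest step bounds its reads. Members' means under 10 were resolved to 1 total or to a narrower range. That range was 27 to 32 reads for *Mirg* in TOTAL, 17 to 22 for *Miat* in TOTAL and 29 to 31 for *Miat* in INPUT. Reads on genes, summed over the 3 libraries of a group, lay between 29291266 and 61523915 in BO, 56120794 and 71104707 in IP, 49401378 and 66674145 in INPUT, and 50307691 and 78452199 in TOTAL. Intervals of ratios are exact (Clopper-Pearson, 95%) and those of means Poisson, from the lower bound of reads. They cover counting error only. Scripts ran in Python 3.11.15 with pandas 2.3.3, numpy 2.4.6, scipy 1.17.1 and matplotlib 3.10.9, and were tested on simulated data.

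The pseudocount was 1 and entered log2 ratios only, not fold values or intervals. A 2-fold difference is a log2 ratio above 1 or below -1, and percentages of all genes are over those with a mean of at least 10 in the 2 groups compared. INPUT vs TOTAL and BO vs INPUT are differences of ratios to IP. Lengths and sequences are from GENCODE M21 (20720 of 20981 symbols matched), for the longest transcript of a gene. Named genes are the 8 members, at most 4 genes per list with the highest TOTAL mean (1 such gene is not reported here), and the 3 genes nearest to *Malat1*, *Neat1*, *Kcnq1ot1* and *Tug1*. The members and lists were chosen with earlier results of these data known, and the motif search, the length and GC classes and the ratios between members were added after the values had been seen. Other scalings, pseudocounts, fold thresholds, filters and transcript lengths were tried.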

Additional observations from a re-analysis of the deposited data

How the results depend on the processing

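No paired analysis was possible because the gene tables give no value per library, and for the same reason no replicate could be left out. Over the 3 comparisons with IP, each of 5 other scalings and pseudocounts kept the sign of the members' log2 ratios in 24 of 24 cases, except that centring on the median gene kept 23, with *Mirg* against BO at -0.15. Centring shifted the median gene by -0.81 against BO, -0.15 against INPUT and 0.03 against TOTAL. The number of members past 2-fold higher in IP than in BO went from 1 to 0 after centring, after upper quartile scaling and after scaling to the sum of gene means, and to 2 at a fold of 1.5. It went from 1 to 0 against INPUT and against TOTAL after scaling to the sum. That of members lower in IP than in TOTAL went from 5 to 3 among members with a mean of at least 100. For INPUT above TOTAL it went from 0 to 1 at a fold of 1.5. For BO above INPUT it went from 0 to 4 after centring, 2 after upper quartile scaling and 1 at a fold of 1.5. For BO below INPUT it went from 3 to 1 after centring and among members with a mean of at least 10, an alternative chosen after seeing the data, or of at least 100. The spread between libraries behind the group means is not given here, and *Mirg* and *Miat* are limited by depth.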
